A study of Macaca mulatta with 18 samples.

Results

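The RNA of 10 cadherin genes was compared between 2 kinds of fetal macaque brain tissue, using the genes as listed by name: CDH2, CDH4, CDH6, CDH7, CDH8, CDH9, CDH10, CDH11, CDH12 and CDH13. All 10 were found among the 22345 genes of the RNA table, of which 14700 could be paired with a symbol. The tissue came from wild type rhesus macaque brain at embryonic day 84, with 3 RNA-seq libraries from samples called CP and 3 from samples called GZ, each numbered 1 to 3 and none treated. The labels do not spell these names out; in work on the developing cortex they usually stand for cortical plate, where young neurons settle, and germinal zone, where progenitors divide. They give the source only as brain. They also do not tell how many animals were used, so each p-value refers to the spread among these 6 libraries, part of which may be technical.

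Cadherins are cell surface proteins that hold cells together by binding the same or a related cadherin on the next cell in a calcium-dependent way. Type I and type II classical cadherins reach the actin skeleton through catenins bound to their cytoplasmic tail. In the developing brain N-cadherin, the product of CDH2, is a main component of the junctions that join radial glia at the ventricular surface. Type II cadherins are expressed in patterns that differ between brain regions, layers and neuron types, and several act in axon targeting and at synapses. CDH2 and CDH4 are type I members, and CDH6 to CDH12 are type II members. CDH13 stands outside both types because T-cadherin is anchored by a lipid and has no cytoplasmic tail.

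The values were log2 normalized FPKM, a level corrected for transcript length, with library medians between 1.82 and 1.87. Read depth is unknown. Profiles of libraries correlated across genes at 0.971 to 0.987 within a tissue and at 0.895 to 0.935 between tissues. Y-linked genes (9 measured) had a median log2 level of 3.73 and 3.75 in the CP and GZ libraries numbered 2 and of -1.73 in both numbered 3. It was 1.55 in CP library 1 and -0.13 in GZ library 1, so the libraries numbered 1 differed from each other, and counts without them are given below. The tissues also differed in marker genes of cell types. All 8 cycling cell markers and 6 of 7 measured interneuron markers were called higher in GZ by the test described below. Of all genes tested, 24.5% were called higher in GZ and 20.9% in CP. The other interneuron marker, SST, was 3.35-fold higher in CP. Also called higher in CP were 9 of 10 neuron markers and all 9 measured markers of endothelium and pericytes. The 7 measured radial glia markers were split. GLI3 (2.83-fold), NOTCH1 (2.59-fold), PAX6 (1.98-fold) and NES (1.48-fold) were higher in GZ, and PROM1 (3.98-fold) and HOPX (1.59-fold) were higher in CP. VIM, which had the highest mean level of the 7 in each tissue, was not called. The summed log2 level of the 7 overlapped, at 8.25 to 8.50 in CP and 8.37 to 8.45 in GZ. In bulk tissue, fewer cells of a type and less RNA per cell cannot be told apart.

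CDH2 was higher in GZ, and CDH4, CDH6, CDH8, CDH9, CDH10, CDH11, CDH12 and CDH13 were higher in CP. The remaining gene, CDH7, was near or below 1 FPKM in every library and fell under the low-value filter, a mean log2 value of 0 over the 6 libraries. A gene was called at an adjusted p under 0.05 (limma, Benjamini-Hochberg over 13460 genes). Thus 8 of the 10 were called higher in CP, where 20.9% of all genes tested were, and 1 was called higher in GZ, where 24.5% were. The median difference over the 10, GZ minus CP, was -1.10 on the log2 scale, against 0.05 over all genes tested. Without both libraries numbered 1 the counts were 7 higher in CP (12.8% of all genes tested) and 1 higher in GZ (12.2%), and the call lost was that of CDH4.

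**Figure D1:**
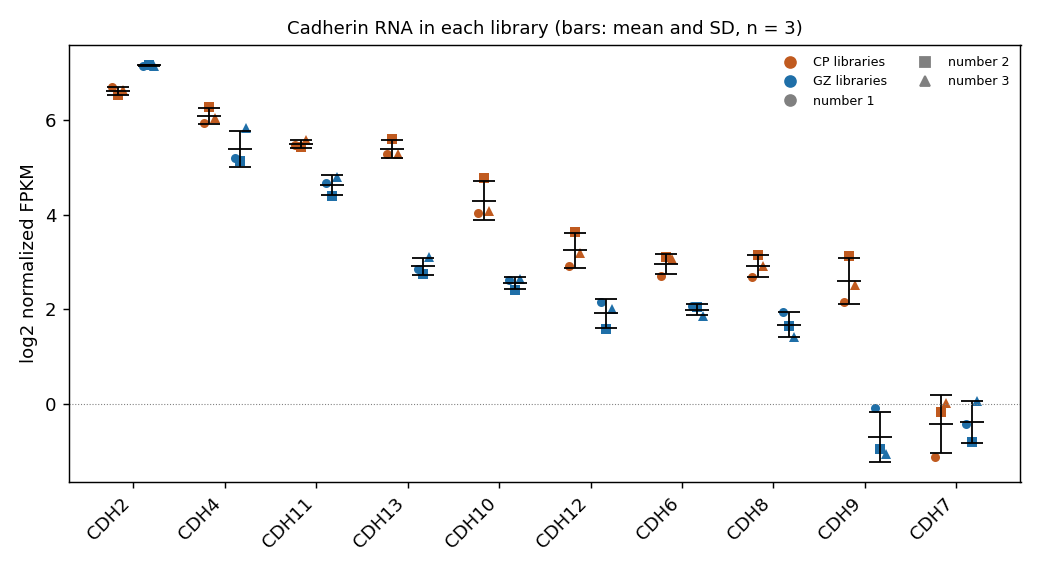
Log2 normalized FPKM of the 10 cadherins in each library, ordered by their CP mean; symbols give the library number, and bars the mean and SD of 3 libraries per tissue. CDH2 lies higher in GZ, CDH7 overlaps, and the other 8 lie higher in CP, with the widest gap on this log2 scale, without a pseudocount, for CDH9.

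CDH2 had the highest level of the 10 in both tissues. Its log2 values were 6.68, 6.52 and 6.63 in CP libraries 1, 2 and 3 and 7.14, 7.16 and 7.13 in the GZ libraries. The GZ values lay within a narrow band, and the lowest of them was above the highest CP value. The difference was 1.45-fold (log2 0.53 ± 0.07 SE, n = 3 per tissue, limma adjusted p = 8.21e-04). It was the smallest of the 9 differences tested. CDH2 exceeded 94.3% of genes tested in CP and 96.8% in GZ by mean level.

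CDH4 codes for R-cadherin, the other type I member, and had the second highest level in both tissues. Its log2 values were 5.93, 6.27 and 6.03 in CP and 5.20, 5.14 and 5.83 in GZ. GZ library 3 stood apart from the other two GZ libraries and lay just under the lowest CP value. The level of CDH4 in CP was 1.61-fold that in GZ (-0.69 ± 0.18 SE as GZ minus CP on the log2 scale, limma adjusted p = 0.018). This call depended on single libraries. It was lost without CP replicate 2 (limma adjusted p = 0.065), without GZ replicate 1 (0.062), without GZ replicate 2 (0.0504) and without both libraries numbered 1 (0.086), while without GZ replicate 3 the difference was -0.91 (7.45e-04).

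The type I genes thus moved in opposite directions. Within a library, CDH2 exceeded CDH4 by 0.75, 0.25 and 0.61 on the log2 scale in CP and by 1.94, 2.03 and 1.30 in GZ. Every GZ library had a wider gap than every CP library. The 3 other type I genes were low: CDH3 had means of 0.31 in CP and 0.14 in GZ (adjusted p = 0.645), and CDH1 (E-cadherin) and CDH15 (M-cadherin) were below 0 in all 6 libraries and were not tested.

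CDH9 had the largest difference of the 10 on the log2 scale without a pseudocount. Its product acts in the formation of synapses on hippocampal neurons. Log2 values were 2.15, 3.12 and 2.51 in CP and -0.08, -0.94 and -1.06 in GZ, or 4.44, 8.68 and 5.69 against 0.94, 0.52 and 0.48 normalized FPKM. CDH9 was 9.77-fold higher in CP (-3.29 ± 0.34 SE, limma adjusted p = 3.53e-04). The fold rests on GZ values under 1 FPKM: with a pseudocount of 1 it was 4.32-fold, and CDH13, at 5.02-fold, then had the largest difference. CDH9 also passed the low-value filter only through its CP values.

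CDH10, the neighbour of CDH9 on chromosome 6, had the next largest difference among type II genes. Log2 values were 4.04, 4.76 and 4.08 in CP and 2.61, 2.41 and 2.65 in GZ. CP library 2 was the high one, while the GZ libraries were close together. The difference was 3.33-fold in favour of CP (-1.73 ± 0.20 SE, adjusted p = 5.39e-04). In CP the level of CDH10 exceeded 58.5% of genes tested, and in GZ 25.7%.

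CDH12 and CDH8 were both more than 2-fold higher in CP. CDH12, which codes for a cadherin found mainly in brain, had log2 values of 2.92, 3.63 and 3.18 in CP and 2.16, 1.58 and 2.01 in GZ. Its difference was 2.51-fold (-1.33 ± 0.23 SE, adjusted p = 0.0028). For CDH8, a cadherin of subsets of cortical and thalamic neurons and of their synapses, the values were 2.69, 3.14 and 2.91 in CP and 1.95, 1.64 and 1.42 in GZ. The 2.36-fold difference of CDH8 (-1.24 ± 0.19 SE, adjusted p = 0.0018) came with no overlap between tissues, as did that of CDH12.

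CDH6 and CDH11 showed smaller differences in the same direction. CDH6 (K-cadherin), which in mouse embryos marks territories next to the boundary of cortex and striatum, had log2 values of 2.71, 3.10 and 3.05 in CP and 2.07, 2.04 and 1.86 in GZ. It was 1.95-fold higher in CP (-0.96 ± 0.16 SE, adjusted p = 0.0023). CDH11 (OB-cadherin), known from bone and mesenchyme and also expressed in brain, was at 5.47, 5.42 and 5.58 in CP and 4.66, 4.39 and 4.80 in GZ. Its CP values were tightly grouped, and it was 1.83-fold higher there (-0.87 ± 0.12 SE, adjusted p = 9.53e-04). CDH11 was the most abundant of the 7 type II members in both tissues. Of the 7 meningeal and fibroblast markers tested, 0 were called by limma, with 1 higher in each tissue at an unadjusted p under 0.05. Without CP replicate 1 or both libraries numbered 1, 1 was called higher in CP, without GZ replicate 3, 2 were, and without CP replicate 3 or GZ replicate 2, 1 was called higher in GZ. Their summed log2 level ran from 6.95 to 7.10 in CP and from 7.01 to 7.36 in GZ, over 8 measured genes, and their part in the CDH11 difference was not tested.

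CDH7 was the exception among the type II members. Log2 values were -1.12, -0.16 and 0.03 in CP and -0.43, -0.81 and 0.08 in GZ, and the tissues overlapped. With no filter the difference was 0.03 (limma adjusted p = 0.957). At these levels a difference between tissues may not be detectable.

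CDH13 had the smallest adjusted p of the 9 members tested. T-cadherin, its product, is found on neurons, where it can inhibit axon growth, and on the endothelium of vessels. Log2 values were 5.27, 5.59 and 5.28 in CP and 2.86, 2.76 and 3.10 in GZ. Values within a tissue spanned far less than the gap between tissues. The difference was 5.56-fold in favour of CP (-2.48 ± 0.13 SE, adjusted p = 3.11e-05), or 5.02-fold with a pseudocount of 1. By mean level CDH13 exceeded 80.9% of genes tested in CP and 31.0% in GZ. CDH2 exceeded CDH13 by 1.23 ± 0.26 (SD, n = 3) on the log2 scale in CP and by 4.24 ± 0.20 in GZ.

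All 9 tested members had no overlap between the 3 CP and 3 GZ values, with 8 higher in CP (25.5% of all genes tested) and 1 higher in GZ (30.9%). The 8 include CDH9, whose place among the genes tested rests on its CP values. Leaving out any 1 library ended no call of these 9 except that of CDH4, and no direction changed. Libraries of 1 tissue also differed from each other. CP library 2 was the highest CP library for 7 of the 10, namely CDH4, CDH6, CDH8, CDH9, CDH10, CDH12 and CDH13. CP library 1 was the lowest for these 7 and CDH7. How often these libraries held these places over all genes was not counted, so this order may not be particular to the cadherins. CP library 1 also had the highest summed log2 level of the cycling cell markers in CP, at 6.72 against 5.95 and 6.20, while the neuron markers summed to 10.68, 10.63 and 10.68. The part of these markers in the cadherin values was not tested.

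The order of levels was led by the same 3 genes in both tissues: CDH2, then CDH4, then CDH11. None of these 3 overlapped with the next in order, except that in CP CDH11 and CDH13 overlapped (0.11 ± 0.25, SD of the within-library difference). In CP the order went on with CDH13, CDH10, CDH12, CDH6, CDH8, CDH9 and CDH7. Neighbours from CDH12 down to CDH9 overlapped, and CDH6 exceeded CDH8 in only 2 of 3 libraries. In GZ the order after CDH11 was CDH13, CDH10, CDH6, CDH12, CDH8, CDH7 and CDH9. There CDH6, CDH12 and CDH8 overlapped with their neighbour among them, as did CDH7 and CDH9, while CDH11 exceeded CDH13 by 1.71 ± 0.09.

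The make-up of the summed RNA of these 10 genes differed between the tissues. Summed over the 10 genes on the linear scale, normalized FPKM was 289, 326 and 299.8 in CP and 231, 223 and 251 in GZ. The log2 sum fell by 0.37 from CP (8.25 ± 0.09 SD) to GZ (7.88 ± 0.09), with no overlap and no test. CDH2 made up 35.5%, 28.1% and 33.1% of the sum in CP and 61.2%, 64.3% and 55.7% in GZ. Its share in the lowest GZ library was above that in any CP library.

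The share of CDH13 was 13.7% ± 0.94 (SD, n = 3) in CP and 3.20% ± 0.20 in GZ. The 7 type II members together held 31.8% ± 1.80 in CP and 18.3% ± 1.46 in GZ. All shares here are of the 10 listed genes only. CDH24, a type II gene outside them, had mean log2 levels of 4.57 in CP and 5.29 in GZ. Over 13 type II genes the summed log2 level ran from 7.02 to 7.25 in CP and from 6.51 to 6.63 in GZ. CDH4 held 22.2% ± 1.30 and 18.1% ± 3.92, and here the tissues overlapped because GZ library 3 reached 22.6%. CDH9 held at most 2.66% of the sum in any library.

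**Figure D2:**
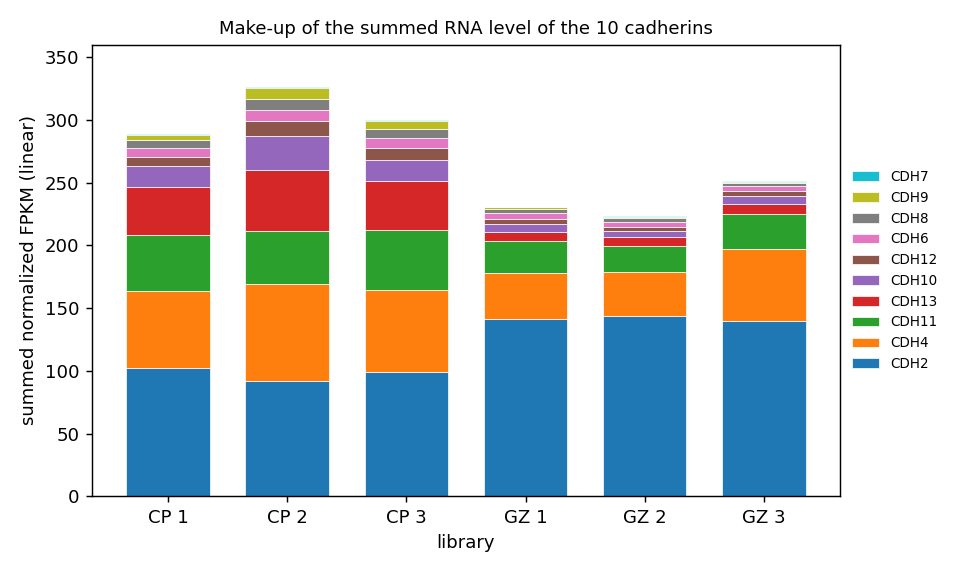
Summed normalized FPKM of the 10 cadherins on a linear scale in each library, with each gene as a segment. The CDH2 segment is larger in the 3 GZ libraries (55.7% to 64.3% of the bar) than in the 3 CP libraries (28.1% to 35.5%), and the CDH13 segment is smaller.

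Several members lie next to each other in the genome. The macaque RefSeq annotation of assembly T2T-MMU8v2.0 was used for gene order only, not for distances. Only protein-coding genes were considered, without those that have a provisional LOC symbol. In that order CDH18, CDH12, CDH10, CDH9 and CDH6 follow each other on chromosome 6, with PRDM9 between CDH12 and CDH10. The 4 members of this run, already counted above, were all called higher in CP, where 20.9% of all genes tested were. Without a pseudocount they ran from 1.95-fold to 9.77-fold. The upper end was CDH9, which passed the low-value filter only through its CP values and was 4.32-fold with a pseudocount of 1. CDH18 was below 0 in all 6 libraries. DROSHA, which codes for a microRNA processing enzyme and comes next after CDH6, differed by 0.17 ± 0.07 SE (adjusted p = 0.084). On chromosome 20 CDH8, CDH11 and CDH5 follow each other and were all higher in CP. GOT2, the gene on the other side of CDH8 and no cadherin, was also higher in CP (-0.37 ± 0.11 SE, adjusted p = 0.024).

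CDH13 lies elsewhere on chromosome 20. Of the genes beside it, HSBP1 was higher in CP (-0.56 ± 0.08, adjusted p = 0.0014) and MPHOSPH6 was not called (-0.15 ± 0.07, adjusted p = 0.118). CDH2 on chromosome 18 is flanked by DSC3, a desmosomal cadherin gene below the filter, and CHST9, which was not called (adjusted p = 0.702). CDH7 on the same chromosome is next to CDH19, which was also below the filter. TAF4 beside CDH4 on chromosome 10 was higher in GZ (0.39 ± 0.10, adjusted p = 0.014), the opposite direction to CDH4. CDH26, on the other side of CDH4, was not called (0.35 ± 0.24, limma adjusted p = 0.280).

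Among all 13 type II genes listed, 10 passed the filter, with a median of -1.10. Of these, 7 were called higher in CP (20.9% of all genes tested) and 1 higher in GZ (24.5%). The 7 are CDH5 and the called type II members, which were already counted above. Besides the members, CDH5 was higher in CP by 3.21-fold (adjusted p = 0.0051). CDH5 codes for VE-cadherin of endothelial junctions, and the other 8 measured markers of endothelium and pericytes were higher in CP as well. The summed log2 level of the 9 measured vessel markers ran from 7.04 to 7.59 in CP and from 5.03 to 6.13 in GZ. The part of vessel RNA in the CDH13 difference was not tested. Within CP, library 3 had the highest vessel sum and library 2 the highest CDH13, while within GZ the orders were the same, with library 3 highest and library 2 lowest in both. CDH24 was the type II gene called higher in GZ, with log2 values of 4.55, 4.56 and 4.59 in CP and 5.30, 5.37 and 5.20 in GZ (1.65-fold, adjusted p = 4.34e-04); it was named after its values were seen. CDH20 and CDH22 were not called (adjusted p = 0.238 and 0.392).

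**Figure D3:**
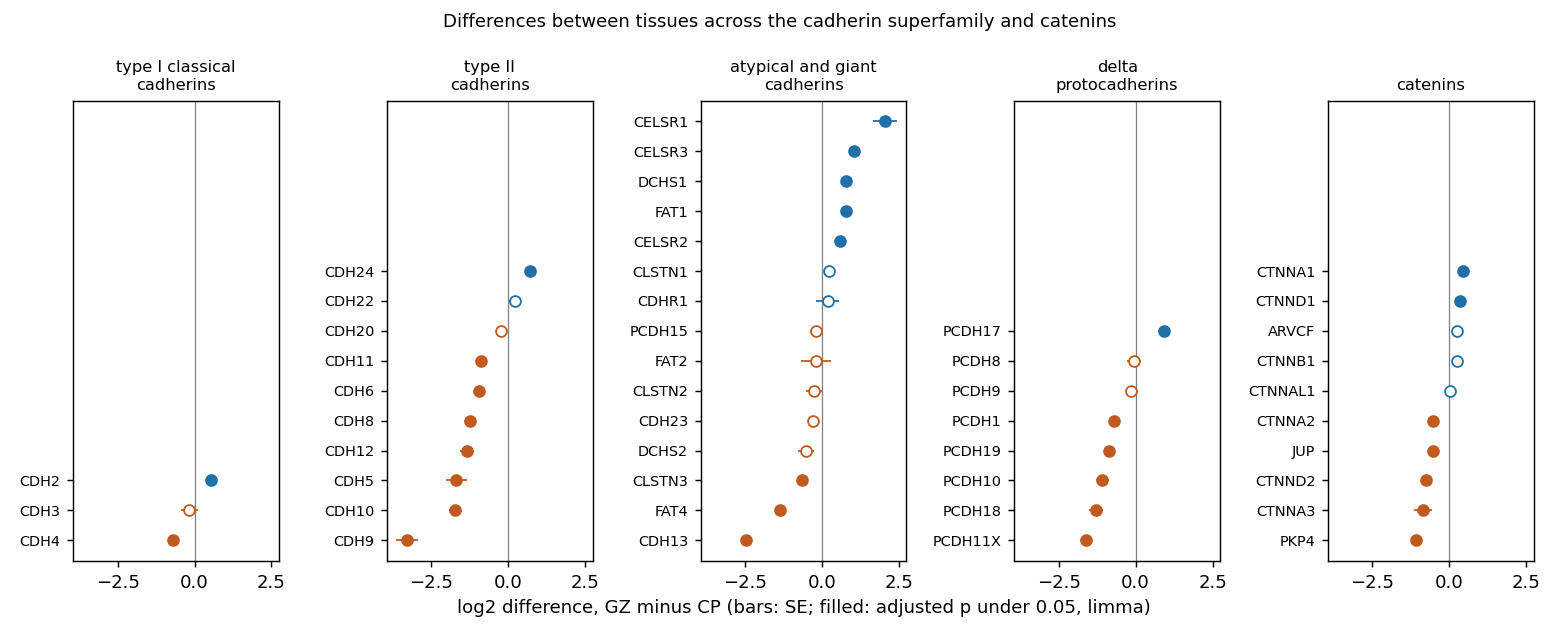
Log2 difference, GZ minus CP, with SE for the tested genes of 4 cadherin lists and the catenins; filled points had a limma adjusted p under 0.05. Most called type II cadherins and delta protocadherins lie left of 0 (higher in CP), while CELSR1, CELSR2, CELSR3, FAT1 and DCHS1 lie right of 0 (higher in GZ).

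Catenins split between related genes. Of 10 tested, 2 had higher RNA in GZ (24.5% of all genes tested) and 5 in CP (20.9%), with a median of -0.25. CTNNB1, ARVCF and CTNNAL1 were not called. PKP4, a p120 catenin relative, was 2.12-fold higher in CP (-1.08 ± 0.09 SE, adjusted p = 1.04e-04), and CTNND2, the neuronal delta-catenin gene, was 1.70-fold higher there. JUP, which codes for plakoglobin, was 1.46-fold higher in CP, and CTNNA3 1.82-fold (adjusted p = 0.047). The CTNNA3 call was lost without CP replicate 1, 2 or 3 (adjusted p = 0.080, 0.136 and 0.099) and without both libraries numbered 1 (0.061), and also with no filter (0.051) and with eBayes without trend (0.064). Without GZ replicate 3 the CTNNA3 difference was -0.49, against -0.86 with all libraries. The JUP call was lost without CP replicate 3 (limma adjusted p = 0.056), GZ replicate 1 (0.052) or both libraries numbered 1 (0.119). With both libraries numbered 1 left out, 3 catenins had higher RNA in CP (12.8% of all genes tested) and 1 in GZ (12.2%). Leaving out CP replicate 3 also gave 3 higher in CP.

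The alpha and p120 catenin genes, described after their values were seen, moved apart. CTNNA1, which codes for alpha-E-catenin, had log2 values of 6.60, 6.49 and 6.63 in CP and 7.08, 6.99 and 7.02 in GZ. CTNNA2, which codes for the neuronal alpha-N-catenin, had 6.75, 6.98 and 6.75 in CP and 6.37, 6.40 and 6.12 in GZ. CTNNA1 was thus below CTNNA2 in all 3 CP libraries and above it in all 3 GZ libraries. The differences were 0.46 ± 0.07 SE for CTNNA1 (adjusted p = 0.0016) and -0.53 ± 0.10 for CTNNA2 (adjusted p = 0.0046). CTNND1, the p120-catenin gene, was below CTNND2 by 0.12 ± 0.02 (SD) in CP and above it by 0.99 ± 0.05 in GZ. The difference between tissues was 0.35 for CTNND1 (adjusted p = 0.0070), and its call was lost without both libraries numbered 1 (0.076). CTNNB1, the beta-catenin gene, had 7.62, 7.46 and 7.72 in CP and 7.88, 7.66 and 7.96 in GZ, which overlapped (0.24 ± 0.10 SE, adjusted p = 0.095); it was called without GZ replicate 2 (0.036).

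**Figure D4:**
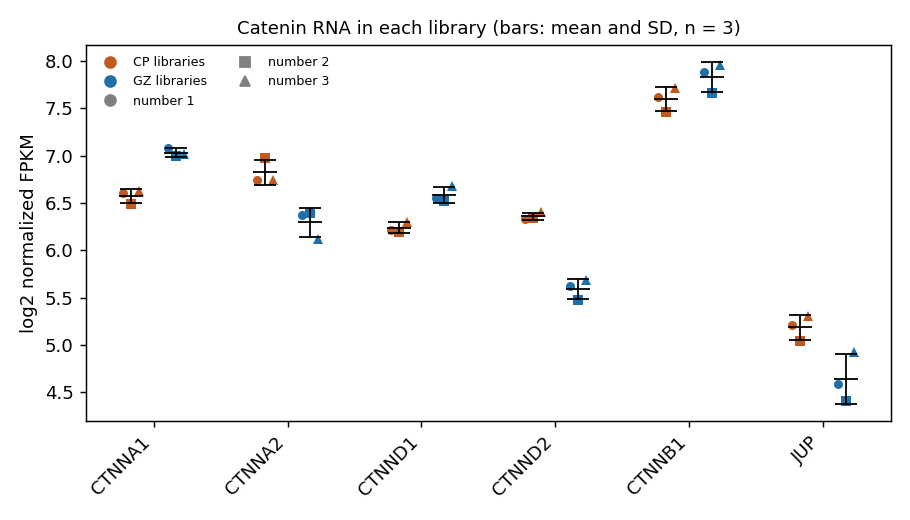
Log2 normalized FPKM of 6 catenin genes in each library, with the mean and SD of 3 libraries per tissue; symbols give the library number. CTNNA1 and CTNND1 lie higher in GZ, CTNNA2, CTNND2 and JUP lie higher in CP, and CTNNB1 overlaps.

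Delta protocadherins, a separate branch of the family with roles in axon and dendrite development, were mostly higher in CP. Of 8 tested, 5 had higher RNA in CP (20.9% of all genes tested) and 1 in GZ (24.5%), with a median of -0.78. PCDH11X was 3.09-fold, PCDH18 2.42-fold and PCDH10 2.12-fold higher in CP (adjusted p = 4.67e-04, 0.0031 and 0.0053). PCDH17 was the gene higher in GZ, by 1.90-fold (0.92 ± 0.18 SE, adjusted p = 0.0051).

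In the list of atypical and giant cadherins the directions were mixed. Of 15 tested, 5 had higher RNA in GZ and 3 in CP, CDH13 among them, with a median of -0.18. Over all genes tested 24.5% were higher in GZ and 20.9% in CP, and the CP count of this list was at that share. CELSR1, a seven-pass cadherin of planar cell polarity, was 4.15-fold higher in GZ (2.05 ± 0.39 SE, adjusted p = 0.0040) from low CP values of 1.28, -0.20 and 0.05. CELSR3, which acts in axon tract formation, was 2.05-fold higher in GZ (adjusted p = 5.68e-04). FAT4, a giant cadherin that pairs with DCHS1 across cells, was 2.55-fold higher in CP (log2 -1.35 ± 0.18 SE, adjusted p = 9.87e-04). Its partner gene DCHS1, named after its values were seen, was 1.71-fold higher in GZ (0.78 ± 0.09 SE, adjusted p = 4.36e-04).

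Genes of adherens junctions and cell polarity were called in both directions. Of 17 tested, 5 had higher RNA in GZ and 6 in CP, with a median of 0.17, and without CP replicate 3 the GZ count was 3. The share of all genes tested was 24.5% for GZ, near that of this list, and 20.9% for CP. PARD3, a scaffold of the apical polarity complex, was 2.17-fold higher in GZ (adjusted p = 0.0018). The receptor phosphatase gene PTPRK was 2.50-fold, the adhesion gene NECTIN3 2.06-fold and TJP1, which codes for the junction scaffold ZO-1, 1.81-fold higher in CP (adjusted p = 5.39e-04, 0.0089 and 3.49e-04).

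Of 11 genes of cadherin cleavage and turnover tested, 4 had higher RNA in GZ (24.5% of all genes tested) and 2 in CP (20.9%). Their median was 0.15, and the CP count was near the share over all genes. PSEN2, which codes for a catalytic subunit of gamma-secretase, was 2.73-fold higher in CP (-1.45 ± 0.18 SE, adjusted p = 7.99e-04). The sheddase gene ADAM10 was not called (0.18 ± 0.11, adjusted p = 0.228). MMP15, which codes for a membrane metalloproteinase, was 1.64-fold higher in GZ (adjusted p = 0.0013). RAPGEF1, an activator of the Rap1 GTPase, was 1.33-fold higher in CP (limma adjusted p = 0.035). The RAPGEF1 call was lost without CP replicate 1 or 3, without GZ replicate 1 or 2 (adjusted p from 0.102 to 0.118), with eBayes without trend (0.063) and without both libraries numbered 1 (0.232), leaving 1 gene higher in CP. The GZ count was 2 when CP replicate 1, CP replicate 3 or both libraries numbered 1 were left out.

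The genes most like CDH2 over the 6 libraries were EML6, LIN54 and RAD50, with Pearson r of 0.9999, 0.9995 and 0.9993 among 11091 other tested genes with a symbol. Those most like CDH9 were MGAT4B, SLC26A8 and GPI (0.9997, 0.9994 and 0.9987). The libraries fall into 2 tissue groups, so such values mostly reflect the difference between tissues: 1207 genes had an r over 0.95 with CDH2 and 854 with CDH9. The GPI difference was small, at -0.28 on the log2 scale, and that of RAD50 was 0.20, so a like pattern did not come with a like size.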

How the data were processed

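RNA-seq of 3 CP and 3 GZ libraries was used, grouped and numbered by the sample titles. Per the labels, the deposited table holds log2 FPKM after cqn normalization. STAR and 2 builds, rheMac8 and Mmul_8.0.1, are among the names in the submitters' processing notes; the counter, the annotation and any use of strand are not given in the sources used. Loop, boundary, DNase and CTCF lists were not used here, since no annotation of their build was at hand. A reference table gave symbols for 65.8% of the identifiers.

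Genes with a mean log2 value of 0 or more over the 6 libraries (13460) were tested with limma 3.58.1 in R 4.3.3 (lmFit, eBayes with trend, GZ minus CP, no block, no pseudocount), with Benjamini-Hochberg adjustment over all of them. The fit was run on simulated data with independent libraries and few changed genes. Many genes differ in the real data, so that run cannot give the error rate here. Sums and shares were computed in Python 3.11.15 from 2 to the power of the deposited value. Genes of the other lists were named when among the up to 4 called with the largest difference; the remaining genes named, and those beside members in the genome, were added after values were seen. The members, lists and alternatives were chosen with earlier results of these data known. Each library and both numbered 1 were left out in turn, and the fit was repeated with a replicate block, without trend, with no filter or one at a mean of 1, after median centring or quantile normalization, and with a pseudocount of 1.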

Additional observations from a re-analysis of the deposited data

How the results depend on the processing

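Calls of the 10 cadherins changed in 1 gene, CDH4, and no direction of the 9 tested changed under any alternative. Leaving out 1 library gave 7 to 8 cadherins higher in CP and 1 higher in GZ, and a summed level, GZ minus CP, between -0.42 and -0.32. CDH9 gave no value with a filter at a mean of 1 or more, which left 7 cadherins higher in CP and 1 higher in GZ. Over all genes, leaving out 1 library gave 2237 to 3126 higher in GZ and 2254 to 2864 higher in CP, and leaving out both numbered 1 gave 1644 and 1721. Leaving out 1 library gave 0 to 1 type I genes higher in CP, 3 to 5 catenins higher in CP, 3 to 5 junction genes higher in GZ, and 2 to 3 turnover genes higher in GZ and 1 to 3 higher in CP. Without both libraries numbered 1 the counts were 0 type I genes higher in CP, 1 catenin higher in GZ and 3 in CP, and 2 turnover genes higher in GZ and 1 in CP. No filter gave 2 type II genes higher in GZ, and eBayes without trend 1 turnover gene higher in CP. Same-numbered libraries did not all deviate together: correlations of their deviations from the tissue mean were -0.38, 0.30 and 0.35 for numbers 1, 2 and 3. Libraries of different numbers gave -0.52 to 0.20, so numbers 2 and 3 lay above that range and number 1 did not. Because of number 1 the main fit did not take the numbers as pairs, although numbers 2 and 3 also matched in Y-linked level. With a replicate block 8 cadherins were higher in CP and 1 in GZ, with 3300 genes higher in GZ and 2817 in CP. In that fit CTNNB1 was called higher in GZ (limma adjusted p = 0.033), while 2 meningeal markers were higher in CP and 1 in GZ. Read depth is unknown, so the precision of the low genes CDH7 and CDH9 cannot be given from counts.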
